A study of Mus musculus with 24 samples.

Results

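The C1 and the C2 forms of NIPBL were compared in 8 of the 24 RNA-seq libraries of this series, 4 from the line carrying C1 and 4 from the line carrying C2, with the treatment kept as a block. The libraries were chosen by their titles alone, so no measured value entered the choice. All come from 3134 cells, a mouse mammary adenocarcinoma line, that carry an IPTG-inducible short hairpin RNA against Nipbl and a NIPBL construct added by piggyBac integration. The 8 libraries share 3 days in charcoal-stripped serum with 1 mM IPTG, so the hairpin was induced in all of them. In each line 2 libraries received ethanol, the vehicle, and 2 received 100 nM dexamethasone, a synthetic glucocorticoid, for 2 h before harvest. The remaining 16 libraries hold the empty vector with and without IPTG, wild type NIPBL (WT) and the double mutant C1-C2, under the same pair of treatments with 2 libraries each. The labels name C1 and C2 without saying which residues they change. The labels name no more than the construct for each line, so the mutation, the integration sites and the history of the cells cannot be told apart. The samples of a group are called biological replicates, and nothing says whether they were separate integrations, so the p-values measure the spread between these samples only.

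NIPBL loads cohesin, the ring-shaped complex that extrudes DNA loops and holds sister chromatids together, and it works as a heterodimer with MAU2. Loss of loading changes the contacts between distant enhancers and promoters, and genes that depend on such contacts, the clustered protocadherins among them, are known to be sensitive to it. The glucocorticoid receptor, encoded by Nr3c1, is a hormone-activated transcription factor that in these cells binds largely at distal enhancers.

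The 8 libraries held 34241415 to 72857880 counts assigned to genes. The dexamethasone libraries were deeper (54202590 to 72857880 counts) than the ethanol libraries (34241415 to 40610136 counts) in both lines. Replicates of the 4 groups correlated at 0.9947 to 0.9975 across genes and differed by more than counting noise. The first principal component of the 8 libraries held 83.1% of the variance and split them by treatment. The second held 6.36% and split them by replicate number, with the first replicates at 2.83 to 6.98 and the second replicates at -6.01 to -2.5. The third held 4.18% and placed the 4 C1 libraries at 1.57 to 7.34 and the 4 C2 libraries at -5.85 to -2.19. Most defining markers of mammary luminal cells were absent: Epcam, Csn2, Wap and Cldn3 had 0 counts in all 24 libraries and Krt8 lay at 0.343 to 0.767 CPM (counts-per-million). Of the 12 luminal markers, Esr1 (2.99 to 5.28 CPM) and Csn3 (0.422 to 3.28 CPM) were expressed. Of 8 basal and myoepithelial markers, Krt14 (13.4 to 21.8 CPM) and Itga6 (177 to 267 CPM) were present. Krt5, Acta2, Myh11, Cnn1, Oxtr and Trp63 did not exceed 0.417 CPM in any of the 24 libraries. Of 10 leukocyte markers, Adgre1 was at 0 and Ptprc at no more than 0.0285 CPM in the 24 libraries, while Cd14 and Cd68 were expressed. The 7 endothelial markers summed to 0.259 to 0.585 CPM and the 6 neuronal markers to 0 to 0.127 CPM in the 8 libraries. The 8 fibroblast markers summed to 1650 to 1780 CPM in C1 and 1540 to 1890 CPM in C2, almost all of it Col1a2 and Pdgfra, with Dcn, Lum and Thy1 near 0.

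Before the comparison, the transcript that the hairpin targets was read in every library. Nipbl stood at 73.3 and 56.2 CPM in C1 with ethanol and 55.6 and 53.3 CPM in C1 with dexamethasone, against 61.0 and 56.2 CPM and 53 and 48 CPM in C2. These ranges overlap in ethanol, and the difference averaged over treatments was 0.13 ± 0.07 (log2, SE), with an edgeR adjusted p of 0.661. The labels do not say from which species the constructs come, so how much of these counts is endogenous or construct RNA was not determined, and the counts do not check the labels. Mau2, the partner of NIPBL, differed by 0.03 ± 0.04 (adjusted p = 0.919) and Nr3c1 by -0.03 ± 0.03 (adjusted p = 0.889). None of the 16 cohesin and CTCF genes tested passed, with a median difference of -0.02.

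Of 16934 genes tested, 214 (1.26%) passed an edgeR quasi-likelihood test of C1 against C2 averaged over both treatments, at a Benjamini-Hochberg adjusted p of 0.05. There were 124 genes higher in C1 (0.732% of those tested) and 90 higher in C2 (0.531%). Most differences were small: 111 of the 214 were at most 1.5-fold, 56 reached 2-fold, and the median absolute log2 difference of the called genes was 0.56. Both C1 libraries lay on the same side of both C2 libraries within each treatment for 207 of the 214, which 8.79% of all tested genes did. All 4 C1 libraries lay on 1 side of all 4 C2 libraries across treatments for 154, which 2.73% of all tested genes did. The calls come from these same libraries, so both counts describe the called genes and do not test them. The call survived the removal of any single library of the 8 for 110 genes (0.65% of those tested), 58 higher in C1 and 52 higher in C2. Without the second C1 dexamethasone library the total fell to 137, of which 135 were among the 214.

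The leading genes came from unrelated families, and most were expressed at a few CPM (the plot of leading genes by library). Each difference below is C1 minus C2 on the log2 scale, averaged over treatments, with its SE and the edgeR adjusted p over all tested genes. Coordinates are those of mm10.

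**Figure D1:**
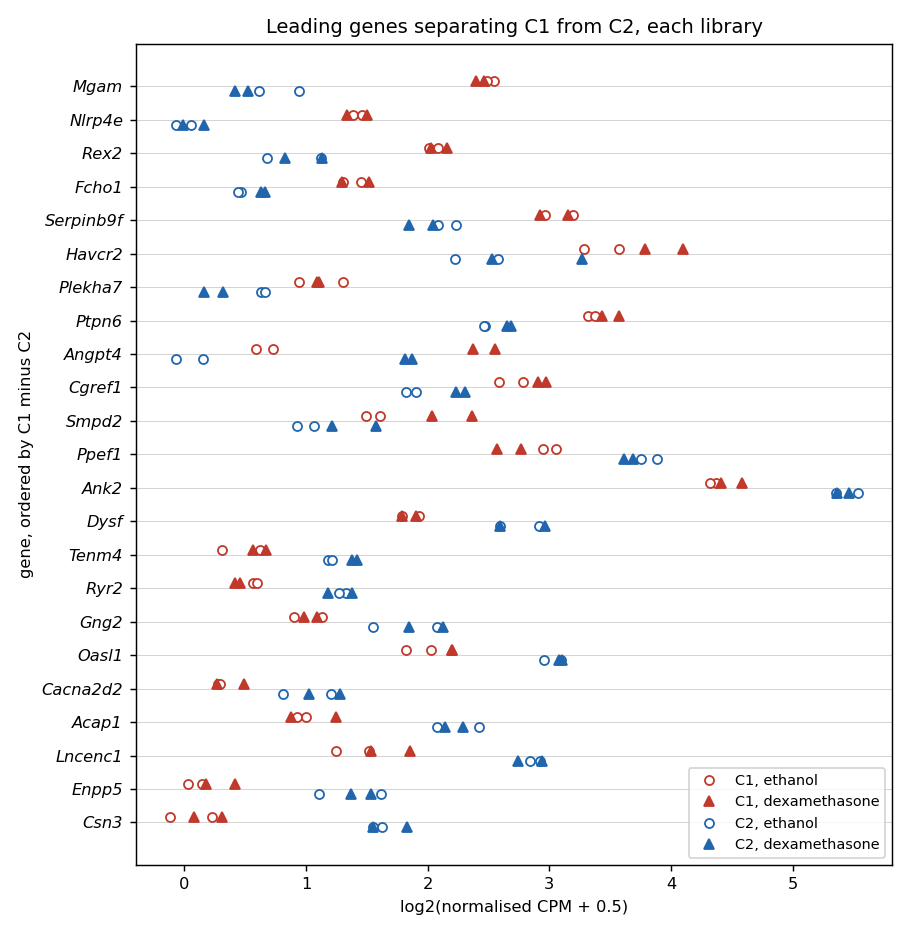
Normalised CPM (log2 after adding 0.5) of 23 of the 24 leading genes in each of the 8 libraries, with C1 in red, C2 in blue, open circles for ethanol and filled triangles for dexamethasone. Within each treatment the C1 and C2 points of every gene shown do not overlap, which the rule for choosing these genes required, and Ank2 is the most abundant of them at 19.5 to 45.9 CPM.

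Among genes higher in C1 with a mean of at least 1 CPM, Mgam had the largest difference. It encodes maltase-glucoamylase, a brush-border enzyme that digests starch (chr6:40628831-40769123). It was read at 5.35 and 5.12 CPM in C1 with ethanol and 5.02 and 4.76 CPM in C1 with dexamethasone, against 1.42 and 1.03 CPM and 0.838 and 0.939 CPM in C2. All 4 C1 libraries were above all 4 C2 libraries, with a difference of 2.27 ± 0.15, or 4.84-fold (adjusted p = 9.3e-10). Nlrp4e, an oocyte-enriched member of the NLR family (chr7:23301192-23362277), was at 2.02 to 2.33 CPM in the 4 C1 libraries and 0.456 to 0.62 CPM in the 4 C2 libraries, a difference of 2.05 ± 0.19 (adjusted p = 1.73e-07). Rex2, a zinc finger gene on chromosome 4 (chr4:147021850-147060794), was at 3.52 to 3.97 CPM in C1 and 1.1 to 1.69 CPM in C2, a difference of 1.38 ± 0.18. Both belong to families of near-identical copies whose shared reads the counting could split, so their levels are uncertain, and the same holds for Serpinb9f.

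Havcr2 was also higher in C1. It encodes TIM-3, an inhibitory receptor best known on T cells (chr11:46454935-46481255). Its level was 9.26 and 11.4 CPM in C1 with ethanol and 13.3 and 16.6 CPM with dexamethasone, against 4.16 and 5.47 CPM and 5.27 and 9.11 CPM in C2. The difference was 1.09 ± 0.15 (adjusted p = 0.00025), and it did not pass the threshold when only the 8 libraries entered the fit, at the same size. Ptpn6, the phosphatase SHP-1 that dampens receptor signalling (chr6:124720707-124738714), was at 9.44 and 9.89 CPM in C1 and 5.04 and 5.01 CPM in C2 with ethanol, and 0.92 ± 0.08 higher over both treatments (adjusted p = 3.93e-08). The leukocyte markers summed to 26.2 to 27.2 CPM in C1 and 25.5 to 28.1 CPM in C2, and their defining members Ptprc and Adgre1 were at or near 0, as given above.

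The serpin Serpinb9f, of the granzyme B inhibitor family, differed by 1.11 ± 0.10 (adjusted p = 4.38e-08). Fcho1, a nucleator of clathrin-coated pits, differed by 1.15 ± 0.20 (adjusted p = 0.00107). Plekha7, a component of adherens junctions, was 0.96 ± 0.16 higher and Cgref1, a secreted EF-hand protein, 0.83 ± 0.08 higher. Smpd2, a neutral sphingomyelinase, was 0.82 ± 0.13 higher.

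Angpt4, an angiopoietin that binds the receptor TIE2 (chr2:151911210-151945337), combined a hormone response with a line difference. It was read at 1.0 and 1.16 CPM in C1 and 0.612 and 0.456 CPM in C2 with ethanol, and at 4.67 and 5.37 CPM in C1 and 3.15 and 3.01 CPM in C2 with dexamethasone. Both lines had more of it with hormone, and C1 had more than C2 in either treatment, by 0.85 ± 0.16 on average (adjusted p = 0.00272).

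Among genes higher in C2 with a mean of at least 1 CPM, Csn3 had the largest difference. It encodes kappa-casein, the milk protein that stabilises casein micelles (chr5:87925579-87932665). It was at 0.422 and 0.673 CPM in C1 with ethanol and 0.741 and 0.556 CPM in C1 with dexamethasone, against 2.59 and 2.42 CPM and 3.05 and 2.42 CPM in C2. The C1 libraries were low in both treatments and no value overlapped, with a difference of -2.12 ± 0.16, or 4.36-fold (adjusted p = 5.6e-09). Csn3 was 1 of 3 tested members among 12 luminal markers and the single one called.

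Ank2 was the most abundant leading gene and had the smallest adjusted p of the comparison. It encodes ankyrin-B, a membrane scaffold for ion channels and transporters (chr3:126921612-127499350). Its level was 20.2 and 19.5 CPM in C1 with ethanol and 23.5 and 20.7 CPM with dexamethasone, against 45.9 and 40.4 CPM and 43.6 and 40.6 CPM in C2. The C2 libraries thus held 2.03-fold more, a difference of -1.02 ± 0.06 (adjusted p = 3.72e-10).

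Several other genes of muscle and nerve stood on the C2 side, a description made after their values were seen and not tested as a theme. Called genes of nerve stood on the C1 side as well, among them Dlg4 and, with a mean under 1 CPM, Dlgap1, Nxph4 and Jakmip1. The C2-side genes named here therefore do not show a lean of such genes to C2. Ryr2, the cardiac calcium release channel (chr13:11553102-12106945), was at 0.838 to 1.01 CPM in the C1 libraries and 1.76 to 2.1 CPM in the C2 libraries, a difference of -1.07 ± 0.18 (adjusted p = 0.000687). Cacna2d2, an auxiliary subunit of voltage-gated calcium channels, differed by -1.09 ± 0.20 (adjusted p = 0.00201). Dysf, the membrane repair protein dysferlin (chr6:84008590-84211060), was at 2.95 to 3.3 CPM in C1 and 5.54 to 7.29 CPM in C2, a difference of -1.03 ± 0.10 (adjusted p = 3.46e-07). Tenm4, a teneurin that guides neuronal contacts, differed by -1.03 ± 0.18 (adjusted p = 0.00102). Neuronal markers were near 0 in both lines, as given above.

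Further C2-side genes were Enpp5, a membrane ectonucleotide pyrophosphatase family member, at -1.75 ± 0.17, and Acap1, a GTPase-activating protein for ARF6 in endosome recycling, at -1.47 ± 0.17. The long noncoding RNA Lncenc1, known from embryonic stem cells, was at 1.87 to 3.11 CPM in C1 and 6.18 to 7.16 CPM in C2, a difference of -1.49 ± 0.11 (adjusted p = 5.17e-09). Gng2, a G protein gamma subunit, differed by -1.08 ± 0.15, and Ppef1, an EF-hand protein phosphatase on the X chromosome, by -0.94 ± 0.08. The strand setting of the counting is not given in the sources used here, so genes with an antisense neighbour, among them Cacna2d2, Oasl1, Gng2, Tenm4, Dysf, Ank2, Smpd2 and Ptpn6, cannot be told apart from that neighbour.

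The interferon-stimulated genes leaned to C2. They encode antiviral effectors and sensors and are switched on when a cell senses interferon. Of 27 tested members, 5 passed the averaged test, all higher in C2 (0.531% of all tested genes were), and 0 passed in the other direction (0.732%). The median difference was -0.44, and 5 of the 27 were positive, beside a median of 0.00 over all tested genes. Both C1 libraries lay below both C2 libraries in each treatment for 12 members, which 4.52% of all tested genes did, and none lay above throughout. The list summed to 240 to 242 CPM in C1 and 276 to 301 CPM in C2 with ethanol, and to 231 to 238 CPM and 258 to 270 CPM with dexamethasone.

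Oasl1, an oligoadenylate synthetase-like protein that restrains interferon production by blocking translation of Irf7 (chr5:114923240-114937915), had the largest difference of the called members. It was at 3.03 and 3.57 CPM in C1 with ethanol and 4.08 and 4.09 CPM in C1 with dexamethasone, against 7.24 and 8.03 CPM and 8.11 and 7.95 CPM in C2. Every C2 library was above every C1 library, with a difference of -1.09 ± 0.11 (adjusted p = 2.88e-07). Its neighbour Oasl2, which lies 11 kb away, was at 6.71 to 7.25 CPM in C1 and 9.11 to 11.6 CPM in C2, a difference of -0.51 ± 0.09 (adjusted p = 0.00105).

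Ifit1, an RNA-binding antiviral protein that blocks translation of foreign transcripts, was at 20.8 and 22.0 CPM in C1 and 33.5 and 32.5 CPM in C2 with ethanol. With dexamethasone it was at 17.3 and 15.8 CPM in C1 and 20.9 and 22.1 CPM in C2. The groups did not overlap within a treatment, and the averaged difference was -0.50 ± 0.07 (adjusted p = 8.42e-05). Isg15, the ubiquitin-like modifier, was at 5.39 to 6.34 CPM in C1 and 7.91 to 8.88 CPM in C2, a difference of -0.53 ± 0.09 (adjusted p = 0.00115). Cmpk2, a mitochondrial nucleotide kinase, differed by -0.89 ± 0.18 (adjusted p = 0.0094), at 0.648 to 0.791 CPM in C1 and 0.958 to 2.05 CPM in C2. The call for Cmpk2 was lost without any 1 of 4 of the libraries, the second C1 library of either treatment and the first C2 library of either treatment.

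Among regulators of the pathway, Stat2 differed by -0.11 ± 0.04 and Irf9 by 0.08 ± 0.08 (edgeR adjusted p of 0.377 and 0.878). Irf7, which amplifies the response, differed by -0.29 ± 0.21 (adjusted p = 0.775). The other members ranged from Oas2 at -0.99 ± 0.62 to Gbp2 at 0.09 ± 0.16. Cxcl10, a chemokine of interferon and NF-kB signalling, was at 4.09 and 4.53 CPM in C1 and 7.61 and 7.06 CPM in C2 with ethanol, and at 1.45 and 1.46 CPM and 2.17 and 2.42 CPM with dexamethasone, a difference of -0.71 ± 0.11 (adjusted p = 0.000342). None of 16 antigen presentation genes passed, with a median of -0.07.

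The 250 bases before the start of 4 of these genes are printed because the called interferon-stimulated genes were all higher in C2. Cxcl10, a member of the repressed inflammatory list and not of the interferon-stimulated list, was added to them. They come from RefSeq on GRCm38.p6 and are written 5′ to 3′ on the strand of the gene. Capitals mark GAAANNGAAA on either strand, a core of the interferon-stimulated response element, with overlapping matches joined.
Isg15 (chr4:156200819-156201068, minus strand): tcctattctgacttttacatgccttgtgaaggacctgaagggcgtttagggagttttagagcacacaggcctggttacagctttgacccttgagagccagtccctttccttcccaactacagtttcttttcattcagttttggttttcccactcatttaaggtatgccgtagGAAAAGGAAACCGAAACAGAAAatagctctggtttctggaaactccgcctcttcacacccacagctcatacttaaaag
Ifit1 (chr19:34640639-34640888, plus strand): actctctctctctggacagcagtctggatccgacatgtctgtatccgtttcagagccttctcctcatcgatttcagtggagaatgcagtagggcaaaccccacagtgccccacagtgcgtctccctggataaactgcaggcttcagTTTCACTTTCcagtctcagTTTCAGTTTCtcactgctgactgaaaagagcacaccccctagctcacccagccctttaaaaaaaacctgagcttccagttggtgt
Cxcl10 (chr5:92348890-92349139, minus strand): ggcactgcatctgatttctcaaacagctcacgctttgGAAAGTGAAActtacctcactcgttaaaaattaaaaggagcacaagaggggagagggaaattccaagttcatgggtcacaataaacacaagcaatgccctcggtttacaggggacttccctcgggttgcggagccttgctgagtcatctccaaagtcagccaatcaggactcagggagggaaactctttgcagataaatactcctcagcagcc
Oasl1 (chr5:114922990-114923239, plus strand): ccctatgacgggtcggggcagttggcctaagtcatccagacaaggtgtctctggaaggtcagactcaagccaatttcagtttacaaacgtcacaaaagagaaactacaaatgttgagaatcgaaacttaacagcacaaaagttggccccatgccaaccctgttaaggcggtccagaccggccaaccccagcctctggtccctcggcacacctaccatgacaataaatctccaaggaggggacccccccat
Isg15 held 3 overlapping matches, Ifit1 held 2, Cxcl10 held 1 and Oasl1 held 0. Oasl2 and Cmpk2 held 0 as well, so 2 of the 5 called interferon-stimulated genes held a match (40%). Of 32851 promoters of this length, 2.98% held at least 1 match, and 11 of 23 promoters of the tested interferon-stimulated genes did (47.8%), for 20 of the 27 genes found there. A match is a description of letters, and its absence in this window says nothing of binding.

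**Figure D2:**
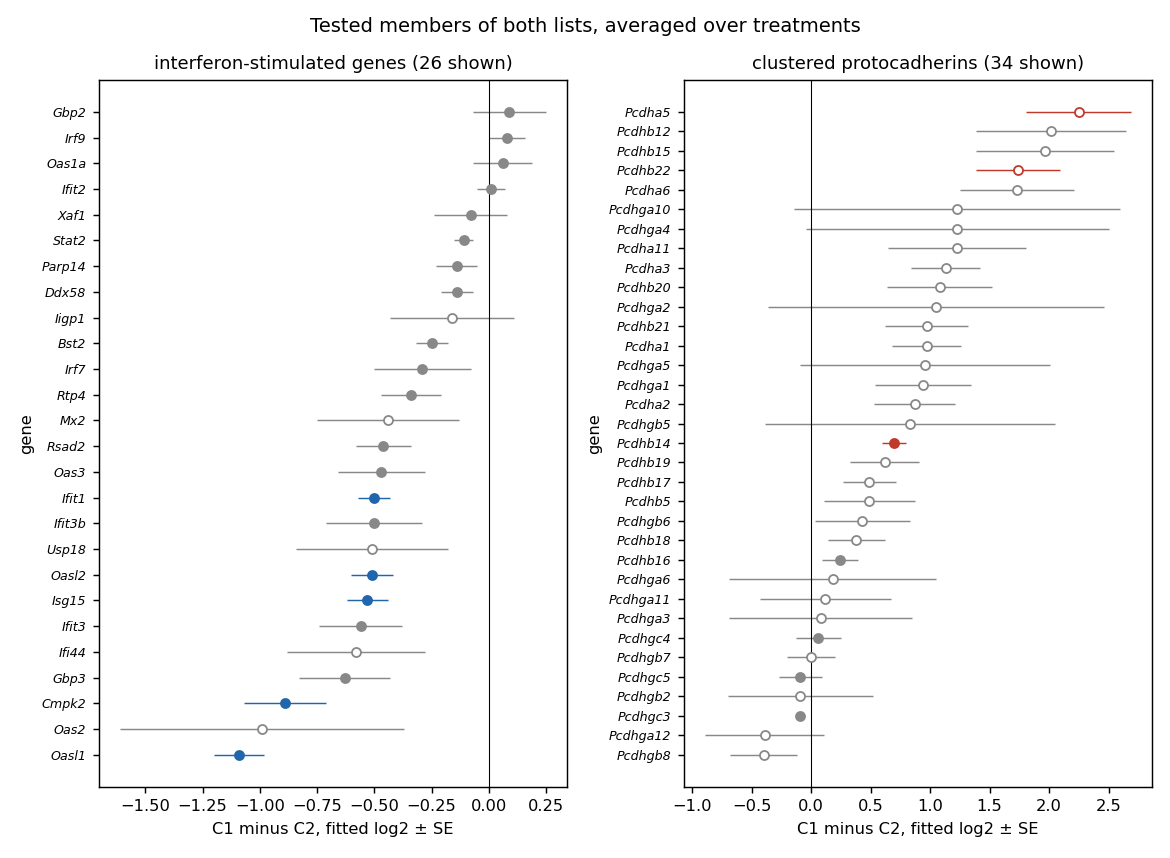
C1 minus C2 averaged over treatments (fitted log2 ± SE) for 26 of the 27 interferon-stimulated genes and the 34 clustered protocadherins tested, with called genes in colour (blue higher in C2, red higher in C1) and open symbols for genes under 1 CPM. The 5 called interferon-stimulated genes lie left of 0 and the 3 called protocadherins lie right of it, while 29 of the 34 protocadherins are under 1 CPM.

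The clustered protocadherins leaned to C1, mainly in the alpha and beta arrays. These genes encode cell-surface adhesion proteins of neurons, each read from its own promoter in 1 of 3 arrays on chromosome 18, and promoter choice depends on CTCF and cohesin. Of 57 members, 34 were tested, 3 passed the averaged test as higher in C1 (0.732% of all tested genes did) and 0 as higher in C2 (0.531%). The median difference of the tested members was 0.76, and it was 0.49 when a floor of 3 counts stood in for the 5 members that did not exceed it in a line, and 29 of the 34 were under 1 CPM. Both C1 libraries were above both C2 libraries in each treatment for 12 members, which 4.27% of all tested genes were, and below for 1.

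Pcdhb14 was the best measured of the 3. It was at 4.38 and 4.12 CPM in C1 with ethanol and 4.64 and 3.63 CPM in C1 with dexamethasone, against 2.96 and 2.68 CPM and 2.48 and 2.24 CPM in C2. No C1 value overlapped a C2 value, and the difference was 0.70 ± 0.10 (adjusted p = 0.00016). Pcdhb22 was at 0.593 to 0.923 CPM in C1 and 0.0939 to 0.316 CPM in C2, a difference of 1.74 ± 0.35 (adjusted p = 0.00958), and WT held more of it, 568 counts in 4 libraries against 159 in C1 and 45 in C2. Pcdha5 differed by 2.25 ± 0.44 (adjusted p = 0.00422) on 73 counts in C1 and 14 in C2.

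Pcdhb22 overlaps Pcdhb21, and Pcdha5 shares its constant exons with the other alpha genes, so both are uncertain, and each lost its call without the first C1 ethanol library. Pcdhb22 also lost it without the first C1 dexamethasone or the first C2 ethanol library. Pcdhgc3, with a mean of 178 CPM the one abundant protocadherin, differed by -0.09 ± 0.04 (adjusted p = 0.569). Because it outweighs the rest, the summed level of the list was 182 to 199 CPM in C1 and 187 to 207 CPM in C2. The next most abundant gamma members, Pcdhgc5, Pcdhgc4, Pcdhgb7 and Pcdhgb8, differed by -0.09 ± 0.18, 0.06 ± 0.19, 0.00 ± 0.20 and -0.40 ± 0.28. The gamma gene Pcdhga1 was higher in C1 within each treatment, at a mean of 0.109 CPM (0.94 ± 0.40). The 7 tested cadherins outside the arrays had 0 calls and a median of 0.06.

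Among p53 targets, 3 of 21 passed, all higher in C1 (0.732% of all tested genes were), with a median of 0.11 and 19 of 21 positive. Ccng1, cyclin G1, was at 313 and 321 CPM in C1 and 275 and 259 CPM in C2 with ethanol, and at 273 and 263 CPM and 220 and 214 CPM with dexamethasone, a difference of 0.28 ± 0.05 (adjusted p = 0.000965). The C1 libraries were higher within each treatment. Mdm2, the ubiquitin ligase that degrades p53, differed by 0.21 ± 0.04 (adjusted p = 0.00935). Cdkn1a, the cell cycle inhibitor p21, was at 85.5 and 85.7 CPM in C1 and 69.9 and 63.5 CPM in C2 with ethanol, whereas with dexamethasone the values 199 and 206 CPM and 203 and 193 CPM overlapped. Its averaged difference was 0.19 ± 0.05 (adjusted p = 0.0396). Cdkn1a kept its call without the first C2 ethanol library and lost it without any other 1 of the 8, and Mdm2 lost its call without the second C1 or the first C2 dexamethasone library. The 26 cell cycle and replication genes had 0 calls and a median of -0.05, with 4 positive.

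Among ATF4 and unfolded protein response genes, 2 of 23 passed, both higher in C2 (0.531% of all tested genes were), with a list median of -0.07. Slc7a5, the large neutral amino acid transporter LAT1, was at 182 and 196 CPM in C1 and 221 and 225 CPM in C2 with ethanol, and at 274 and 267 CPM and 305 and 314 CPM with dexamethasone. The difference was -0.22 ± 0.04 (adjusted p = 0.00276), with no overlap within a treatment. Aldh1l2, a mitochondrial folate enzyme, differed by -0.19 ± 0.04 (adjusted p = 0.0241) and lost its call without the second C1 or the first C2 library of either treatment.

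Single calls came from several further lists, and 1.26% of all tested genes were called. Col6a2, a chain of collagen VI, was 0.65 ± 0.11 higher in C1 (adjusted p = 0.00355), the one call of 21 matrix and mesenchymal genes. Krt14, the basal keratin, was 0.27 ± 0.07 higher in C1 (adjusted p = 0.0373), the one of 13 epithelial genes, and lost its call without the second C1 or the first C2 library of either treatment. Peg13, an imprinted noncoding RNA, was at 19.3 to 20.6 CPM in C1 and 14.4 to 15.3 CPM in C2, a difference of 0.42 ± 0.05 (adjusted p = 2.19e-05), the one call of the 5 tested members of the imprinted list. Igf1, the insulin-like growth factor, was 0.74 lower in C1 on the log2 scale, at -0.74 ± 0.15 (adjusted p = 0.00588), the one of 22 growth factor genes, and lost its call without the second C1 or the first C2 dexamethasone library.

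Hist1h4i, a histone H4 gene of the large cluster on chromosome 13, was the one call of 63 replication-dependent histone genes. It was at 34.0 and 37.6 CPM in C1 with ethanol and 30.9 and 34.3 CPM with dexamethasone, against 51.7 and 53.5 CPM and 46.2 and 47.7 CPM in C2. The C2 libraries were higher throughout, by a difference of -0.54 ± 0.05 (adjusted p = 4.18e-07). The median of the list was -0.13. No call was made among 27 Hox genes, 18 immediate early genes, 26 sterol and fatty acid synthesis genes, 19 NRF2 and antioxidant genes, 18 hypoxia and glycolysis genes, 15 heat shock genes or 27 Notch, Wnt and TGF-beta genes, whose medians ran from -0.03 to 0.04.

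Within ethanol, 82 genes (0.484%) passed, 38 higher in C1 (0.224%) and 44 higher in C2 (0.26%), and within dexamethasone 87 (0.514%), 45 (0.266%) and 42 (0.248%). Both sets held 54 genes, 65.9% of the ethanol calls and 62.1% of the dexamethasone calls, all in the same direction. Every one of the 82 ethanol calls had the same sign in dexamethasone, and 83 of the 87 dexamethasone calls had the same sign in ethanol (the plot of both treatments). These contrasts use different libraries, but of the same lines and with a shared estimate of spread. Their agreement is therefore not an independent repeat of the difference between the mutants. The share of all tested genes with the same sign in both treatments is not given here. The ethanol count fell to 32 without the first C1 ethanol library and to 38 without the first C2 ethanol library. The dexamethasone count fell to 39 and 55 without the first and the second C1 dexamethasone library, and to 54 and 41 without the first and the second C2 dexamethasone library. Of the 214 averaged calls, 109 passed in neither treatment alone.

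**Figure D3:**
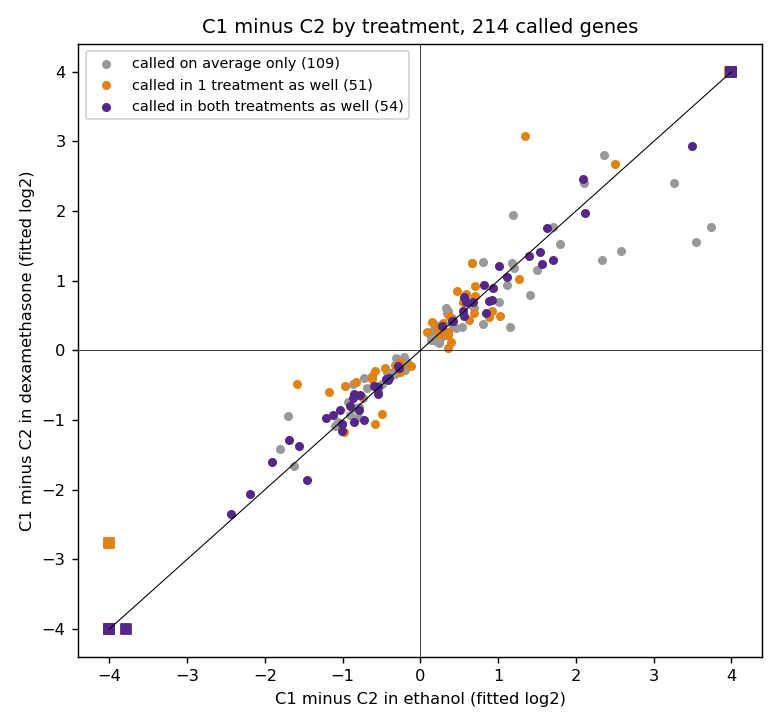
C1 minus C2 in ethanol (x) and in dexamethasone (y), fitted log2, for the 214 genes called on average, coloured by whether they also passed in 1 treatment (51), both (54) or neither (109). Points follow the diagonal line of equal differences, which choosing genes on the average of both treatments favours. Squares mark genes beyond 4 log2 units in either treatment, drawn at the edge.

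By the single treatments, Serinc5, a multipass membrane protein that restricts retroviruses, was 1.02 higher in C1 in ethanol (adjusted p = 0.00032), at 5.06 and 5.25 CPM against 2.47 and 2.62 CPM. In dexamethasone it was at 6.02 and 5.65 CPM against 4.30 and 3.98 CPM, a difference of 0.49 (adjusted p = 0.105). Cpne7, a calcium-dependent membrane-binding copine, passed in dexamethasone at -1.06 (adjusted p = 0.00878), with 0.992 and 1.11 CPM in C1 and 1.98 and 2.42 CPM in C2, and had -0.59 in ethanol (adjusted p = 0.623). Igf1 and Cmpk2 passed in ethanol, at -0.97 and -1.17 (adjusted p of 0.0338 and 0.0431). The difference between treatments passed for none of these 4 genes.

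The 4 dexamethasone calls with the opposite sign in ethanol were Mrc2, a collagen receptor, and the histone genes Hist1h2an, Hist1h2ac and Hist1h4b. Of the 63 histone genes tested, 6 passed in dexamethasone, all higher in C2 (0.248% of all tested genes were), and their median there was -0.22 beside -0.03 in ethanol. Hist1h2ac differed by -0.46 ± 0.09 in dexamethasone (adjusted p = 0.0113) and by 0.14 ± 0.09 in ethanol (adjusted p = 0.831). Other RNA classes moved in the same dexamethasone libraries. The 75 ribosomal protein genes had a median of -0.11 there and summed to 24500 to 24700 CPM in C1 and 26300 to 26600 CPM in C2, and the 15 mitochondrially encoded genes had a median of -0.29, after 0.25 in ethanol. Neither list had a call in any of the 4 comparisons as fitted here, and the closing section gives a call of Rps21 without the filter on low counts. The part of these shifts in the histone calls was not tested.

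The response to dexamethasone itself did not separate the lines at this precision. The response in C1 minus the response in C2 passed for 0 genes (0%) with edgeR and for 0 with DESeq2, while 512 genes (3.02%) had an unadjusted p below 0.05. Over the 9050 genes with a mean of at least 10 CPM, the median half-width of the 95% confidence interval of this difference was 0.19 on the log2 scale. A missed threshold does not show that the lines responded alike. Of the 214 genes called between the lines, 7 had an unadjusted p below 0.05 for the response.

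For the canonical hormone targets the intervals were narrow. Per1, a clock repressor with a well-known receptor site, responded by 3.38 in C1 and 3.48 in C2 (log2), a fitted difference of -0.10 with a 95% interval of -0.24 to 0.04. Sgk1, the serum and glucocorticoid kinase, responded by 2.98 and 2.94 (difference 0.05, interval -0.12 to 0.21). Tsc22d3, which encodes the anti-inflammatory protein GILZ, responded by 3.77 and 3.92 (difference -0.15, interval -0.42 to 0.12), and Fkbp5, a receptor co-chaperone, by 2.33 and 2.40 (difference -0.08, interval -0.31 to 0.15).

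Among 24 glucocorticoid-induced genes with a mean of at least 10 CPM, the median response was 2.26 in C1 and 2.21 in C2, and the interval of the difference stayed within 2-fold either way for 23. Lcn2 was the one outside, with an interval of -1.46 to 2.01. The metallothionein Mt1 had the one unadjusted p below 0.05 in this list, 0.0187 (edgeR adjusted p = 1.0), with responses of 1.76 and 2.01. Of 4 repressed genes with a mean of at least 10 CPM, the interval stayed within 2-fold for 3. The neutrophil chemokine Cxcl5 was the exception, with responses of -2.31 in C1 and -2.74 in C2 and a difference of 0.44 (interval -0.18 to 1.06; the plot of responses).

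**Figure D4:**
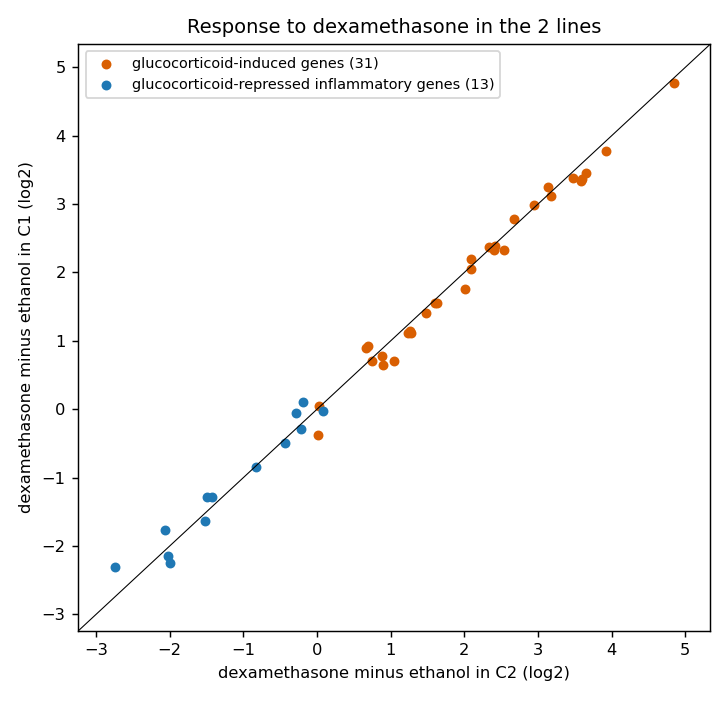
Response to dexamethasone (log2, dexamethasone minus ethanol) in C2 (x) and C1 (y) for 31 glucocorticoid-induced and 13 glucocorticoid-repressed inflammatory genes, 1 point a gene. The points lie along the line of equal response, from Cxcl5 at -2.31 in C1 and -2.74 in C2 to Lcn2 at 4.77 and 4.84.

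In level, 2 hormone-regulated inflammatory genes and 1 induced gene separated the lines. Suox, sulfite oxidase, was at 11.1 and 12.6 CPM in C1 and 9.81 and 10.5 CPM in C2 with ethanol, and at 117 and 117 CPM and 92.2 and 93.4 CPM with dexamethasone. The difference was 0.28 ± 0.05 (adjusted p = 0.00445), the one call of 31 induced genes, whose median was -0.05. It was lost without the second C1 or the first C2 ethanol library. Ccl2, a monocyte chemokine, was at 13.6 and 13.4 CPM in C1 and 9.47 and 9.14 CPM in C2 with ethanol, a difference of 0.43 ± 0.11 (adjusted p = 0.047), and lost its call without any 1 of the 8 libraries. Cxcl10, described above, went the other way, and the median of the 13 repressed genes was -0.03.

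The same genes were read in the other IPTG-treated lines to see on which side each lay (the plot of other lines). Each line was placed on a scale with C2 at 0 and C1 at 1, from the mean log2 CPM after adding 0.5. Because the 214 genes were chosen for the difference between C1 and C2, these positions are a description without a test. The median position was 0.52 for the empty vector, 0.53 for WT and 0.45 for C1-C2. All 3 lines were nearer C2 for 58 genes and nearer C1 for 61, and they were divided for 95. All 3 lay between C1 and C2 for 77.

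**Figure D5:**
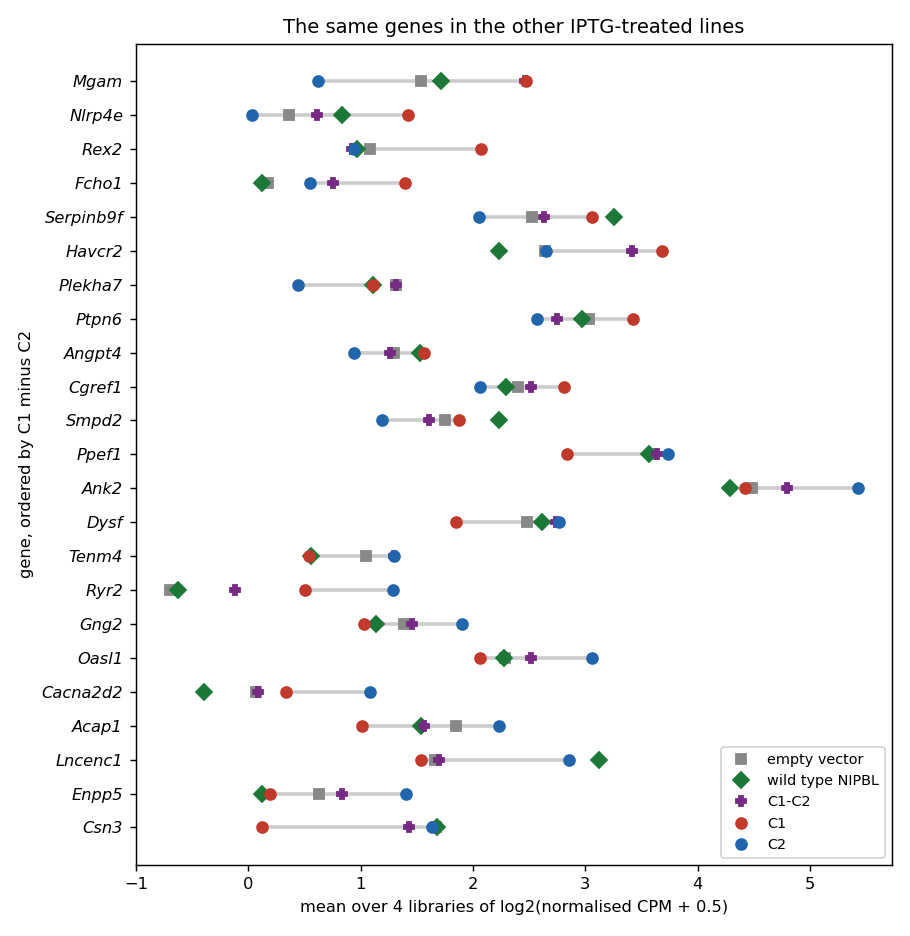
Mean over 4 libraries of log2(normalised CPM + 0.5) for 23 of the 24 leading genes in C1 (red), C2 (blue), the empty vector with IPTG (grey), wild type NIPBL (green) and C1-C2 (purple), with a grey bar joining C1 to C2. Csn3 and Rex2 show 1 line standing apart, with the empty vector, wild type and C1-C2 symbols near C2, and in Ryr2 those symbols lie beyond C1.

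Individual genes show both patterns. For Csn3 the empty vector, WT and C1-C2 lines stood at -0.02, -0.03 and 0.14, so C1 was the line apart, and for Rex2 at 0.13, 0.03 and -0.02. For Plekha7 they stood at 1.31, 0.99 and 1.30, so C2 was apart. For Ank2 they stood at 0.94, 1.13 and 0.62. For Mgam the C1-C2 line was at 0.99, level with C1, with the empty vector at 0.49 and WT at 0.59. For Ryr2 all 3 lay beyond C1, at 2.55, 2.45 and 1.81. For Lncenc1 WT was near C2 at -0.20, while the empty vector was at 0.90 and C1-C2 at 0.88.

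Of the 214 genes, 37 had a mean under 1 CPM, 24 higher in C1 and 13 higher in C2, and 17 of the 37 kept their call without any 1 library. The genes named in this and the next paragraph were chosen after their values were seen. For 8 genes 1 of the lines held at most 3 counts in its 4 libraries. Vmn1r33, a vomeronasal pheromone receptor gene, had 18 and 22 counts in C1 with ethanol and 76 and 53 with dexamethasone, and 0 in each C2 library. With a floor of 3 counts standing in for the C2 line it was 53.7-fold higher in C1. The exact lower 95% limit of the ratio, for counting error only, was 43.2. Vmn1r33 had 0 counts in the empty vector with IPTG, WT and C1-C2 lines. Its neighbour Vmn1r32, 50.4 kb away, had 60 counts in C1 and 2 in C2. These receptors are near-identical copies, so the split of reads between them is uncertain. Zdbf2, a gene known to be imprinted that was not in the list above, had 67 counts in C1 and 1 in C2, a ratio of 63.8 with an exact 95% interval of 11.1 to 2560, which covers counting error only.

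Ncam1, the neural cell adhesion molecule (chr9:49502136-49798925), went the other way, with 0, 0, 1 and 2 counts in the C1 libraries and 55, 64, 84 and 73 in the C2 libraries. The ratio was 96.6 with an interval of 32.7 to 471, and the C1-C2 line held 75 counts, WT 16 and the empty vector 16. The antisense gene Gm11149 overlaps it and had 1 count in C1 and 118 in C2, so the reads of the pair cannot be told apart. Sptb, the beta chain of erythrocyte spectrin, had 6 counts in C1 and 65 in C2. Cox7b2, a testis isoform of a cytochrome c oxidase subunit, had 295 in C1 and 31 in C2, and 472 in C1-C2. Slc4a5, a bicarbonate transporter, had 29 and 5, while WT held 693.

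Called genes also lay side by side. Within 500 kb there were 36 neighbouring pairs of called genes, 22 in the same direction and 14 in opposite directions, holding 61 genes. How many such pairs gene density alone would give was not determined. Same-direction pairs included Serpinb9f with Serpinb9g, Serpina1a with Serpina1b, Akr1c14 with Akr1c12 and Oasl1 with Oasl2, all of them related genes that can share reads. They also included Clstn3 with Ptpn6, at 0.62 and 0.92, and Cpne7 with Spata2l, at -0.83 and -0.88. Opposite pairs included Acap1 with Dlg4, at -1.47 and 0.64, and Anxa8 with Sncg, at 0.74 and -0.56. By chromosome, 0.722% (chromosome 19) to 1.94% (chromosome 14) of the tested genes were called on the autosomes, and the median difference of every autosome lay between -0.01 and 0.01.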

How the data were processed

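RNA from 24 libraries was sequenced, and the authors deposited raw counts of reads per gene for 55341 genes. The submitters' processing notes name bcl2fastq 2.20, cutadapt 1.18, STAR 2.7.0f, featureCounts from Subread 2.0.3 and mm10. The annotation, the strand setting and the treatment of reads matching several genes are not given in the sources used here. All genes were found by name in GENCODE vM21, 55298 of them at the same coordinates. Positions were those deposited with the counts, and gene types came from GENCODE.

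Groups came from titles. For the second C1-C2 ethanol library the title and another label disagree on the treatment. Grouped by its title, it entered the estimate of spread and the positions and counts given for the C1-C2 line. All 24 libraries were fitted with edgeR 4.0.16 (R 4.3.3), TMM factors, a filter on low counts that kept 16934 genes, and 12 group means, which left 12 residual degrees of freedom. The test was robust quasi-likelihood with Benjamini-Hochberg adjustment over all tested genes, in 4 comparisons. The median biological coefficient of variation was 6.43%. CPM values use TMM-adjusted totals. Scripts were tested on simulated data. DESeq2 1.42.0 and the other alternatives are in the closing section.

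The leading genes are up to 12 a direction with the largest difference among called genes with a mean of at least 1 CPM, no overlap within a treatment, and a call kept without any 1 library. Gene models without a name were skipped, and 1 leading gene and 1 interferon-stimulated gene are counted but not reported here. From each list the genes with the smallest p, no more than 4, were also followed. The genes and lists were chosen with earlier results of these data known. None of the 6 X inactivation and Y-linked genes was tested, since all were filtered.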

Additional observations from a re-analysis of the deposited data

How the results depend on the processing

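No call between C1 and C2 changed direction under any alternative run. The averaged comparison gave 214 genes with DESeq2 (191 shared), 219 with GC and length trends removed and 217 with RLE size factors. It gave 326 without a filter on low counts (210 shared). As first fitted, with the filter, 56 of the 214 reached 2-fold. Leaving out 1 library at a time gave 137 to 237 genes on average, 32 to 90 in ethanol and 39 to 96 in dexamethasone. Without the filter, ethanol gave 143 and dexamethasone 171. With only the 8 libraries the averaged comparison gave 171 (157 shared, 57 of the 214 lost), ethanol 53 and dexamethasone 65. A stricter filter on low counts gave 185 in the averaged comparison (173 shared, 41 of the 214 lost). The response difference gave 0 to 1 gene when 1 library was left out and 4 without the filter: 6720427I07Rik, Hist1h2ac, Rps21 and mt-Tp. Why the filter changes these was not tested.

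The labels give replicate numbers 1 and 2 in each group. Deviations of same-numbered libraries correlated at 0.252 to 0.598 among the 4 C1 and C2 groups, but with fewer than 3 numbers this does not establish pairing. With a replicate block over all libraries or within treatment the averaged comparison gave 325 genes either way, all 214 among them. In dexamethasone the block gave 137 over all libraries and 136 within treatment, in ethanol 120, and for the response 0.

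For the 136 genes followed, 2461 of 2563 values under alternatives kept direction and side of the threshold, 47 lost the call (11 genes), 55 gained it (18 genes) and 0 reversed. Of the 24 leading genes, Havcr2 alone lost it, in both fits restricted to the 8 libraries, but these genes were chosen for keeping their call without any 1 of the 8, so leaving 1 out could show no loss. With 2 libraries a group, differences within a single treatment rest on few values, and for genes under 1 CPM counting error limits them.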

Other observations

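Several well-expressed genes outside the lists separated C1 from C2 by small margins, and they are named here after their values were seen. Each kept its call without any 1 of the 8 libraries, and p-values are edgeR's, adjusted over all tested genes. Usp14, a proteasome-bound deubiquitinase, was at 152 and 158 CPM in C1 and 116 and 120 CPM in C2 with ethanol, and at 134 and 129 CPM and 99.4 and 97.1 CPM with dexamethasone, a difference of 0.41 ± 0.04 (adjusted p = 3.26e-07). Flt1, a VEGF receptor, was at 32.8 to 40.8 CPM in C1 and 26.5 to 30.5 CPM in C2, a difference of 0.35 ± 0.05 (adjusted p = 0.000259). The 7 endothelial markers were near 0 in both lines.

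Sncg, gamma-synuclein, was at 36.3 to 42.5 CPM in C1 and 51.8 to 60.7 CPM in C2, a difference of -0.56 ± 0.07 (adjusted p = 0.000154). Ndufs1, a subunit of respiratory complex I, was at 97.8 to 107 CPM in C1 and 116 to 131 CPM in C2, a difference of -0.26 ± 0.03 (adjusted p = 2.59e-05), and it overlaps Eef1b2 on the other strand, itself at -0.21 ± 0.04 (adjusted p = 0.00309), a call that was lost without at least 1 of the libraries. S100a4, a calcium-binding protein of motile cells, had lower values with hormone in both lines and was higher in C1 in each treatment, at 97.8 and 105 CPM against 83 and 86.2 CPM with ethanol and at 24.5 and 27.4 CPM against 21.6 and 22.4 CPM with dexamethasone (0.25 ± 0.05, adjusted p = 0.00199).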
